A study of Drosophila melanogaster with 18 samples.

Results

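Neurons at 2 ages were compared: the 3 pupal and the 3 larval control libraries, 6 of the 18 Drosophila melanogaster libraries of a study of the RNA-binding protein gene shep. The members were chosen by the labels of the libraries and not by any measured value, and all 8784 genes that passed a filter on low counts were tested. In both groups the elav driver, which is active in neurons, expressed Dcr-2 (Dicer-2, used to strengthen RNA interference) and the membrane marker mCD8::GFP, with no RNAi transgene. The pupal animals were at stage P14, late in metamorphosis, and the larval animals in the third instar. Flies were raised at 25 degrees Celsius. Live GFP-positive cells were sorted by flow cytometry, and RNA of the sorted cells was sequenced. The labels do not give the sex of the animals, the part of the nervous system that was dissociated or the number of animals in a library. They also do not say that replicates were separate groups of animals, and p values here are set against the spread of these libraries, which may be technical. Other neuron libraries of the study, 3 at each stage, carried a shep RNAi transgene as well and are used below as a further set of libraries for the same comparison.

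In the third instar, neural stem cells of the fly (neuroblasts) still divide and add young neurons, whose axons and dendrites are growing. During metamorphosis, pulses of the steroid hormone ecdysone act through nuclear receptors and a cascade of transcription factors, larval neurons are remodelled, and neurons born in the larva complete their arbors and form the synapses of the adult. Synapses release transmitter by fusion of vesicles with the membrane at the active zone, and channels and receptors then set the electrical response of the partner cell.

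Total counts were 8548493 to 9445025 in pupal and 9984725 to 12910603 in larval control libraries. Pupal libraries held at least 1 read of 10382 to 10535 genes and larval libraries of 11829 to 12074. Genes of the mitochondrial genome took 2.36% to 2.78% of counts in pupal and 1.17% to 1.32% in larval libraries. Levels are given as CPM, counts per 1000000 of the library total after scaling by TMM, a method that assumes that most genes do not differ. TMM factors were 0.746 to 0.823 in pupal and 1.28 to 1.35 in larval libraries. Pairs of libraries of the same stage had Pearson correlations of log2 CPM of 0.993 to 0.996 across genes. By a chi-square statistic per gene, pupal replicate 1 was further from replicates 2 and 3 (22.9 and 14) than these from each other (6.58). In larval libraries the same values were 19.7, 21 and 5.01. Pupal replicate 1 was lowest in the sum of the vesicle fusion list (54090, 61850 and 59380 CPM). It was highest in that of the endocytosis list (12950, 11890 and 12500 CPM). Larval control replicate 1 stood above the other larval libraries in dividing-cell genes, the sum of the mitosis list being 747.3, 752.6 and 770.3 CPM in pupal and 2268, 1993 and 1848 CPM in larval libraries, and the falls named below kept their sign without it. The neuronal synaptobrevin gene nSyb had 3928, 5017 and 4537 CPM in the pupal libraries, against 299, 391 and 378 CPM in the larval libraries. The elav gene itself had 992, 1095 and 1114 CPM in the pupal libraries, against 2498, 2486 and 2388 CPM in the larval libraries. The glial transcription factor gene repo was low at both stages, at 1.28, 0.569 and 0.962 CPM in pupal and 11.2, 6.17 and 7.75 CPM in larval libraries. The neuroblast gene ase had 0.711, 0.142 and 1.1 CPM in pupal and 111, 98.3 and 84.3 CPM in larval libraries. Dcr-2, which the driver expressed in every group, had 1700, 1365 and 1652 CPM in pupal and 1291, 1134 and 1181 CPM in larval libraries (log2 fold change 0.39, SE 0.11), a difference that changed sign when libraries were scaled by their totals. shep, the gene studied in the series, had 1665, 2012 and 1956 CPM in pupal and 1200, 1333 and 1402 CPM in larval libraries (log2 fold change 0.52, SE 0.10), and its sign changed in the same way.

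Of the 8784 genes tested, 7315 (83.3%) differed between the stages at a Benjamini-Hochberg adjusted p under 0.05 by edgeR's quasi-likelihood test. In pupal neurons 3428 (39.0%) were higher and 3887 (44.3%) lower than in larval neurons, and genes past this threshold are called below. Differences of at least 4-fold were found for 1371 genes that were higher (15.6%) and 1600 that were lower (18.2%). Differences of at least 16-fold were found for 466 higher and 453 lower genes. Among the genes at least 4-fold apart, 12 of the higher had no larval read and 76 of the lower had no pupal read, and the fitted size of their difference is not a measured fold. All 3 pupal libraries were above all 3 larval ones for 39.2% of genes and below them for 44.9%. The median log2 fold change (pupal minus larval) of all genes was -0.17, and the median size was 1.33, with a biological coefficient of variation of 0.0869 between libraries of one group. A first principal component separated the stages and held 95.3% of the variance of the 6 libraries.

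**Figure D1:**
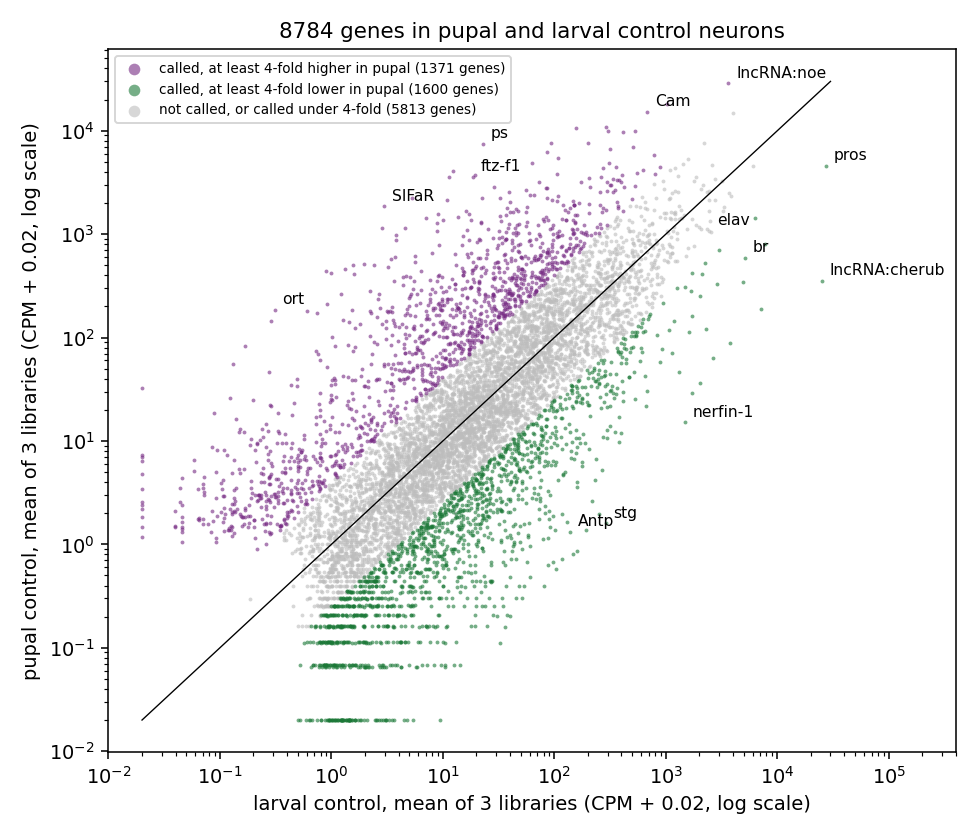
Each point is a gene, at its mean level over 3 pupal (vertical axis) and 3 larval (horizontal axis) control libraries, in CPM plus 0.02 on log scales, with the diagonal marking equal levels. The 1371 genes called and at least 4-fold higher in pupal neurons lie above the diagonal and the 1600 at least 4-fold lower below it, and both sets span the whole range of levels.

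The level at which genes count as unchanged depended on the scaling. With library totals in place of TMM the median log2 fold change was -0.91, a shift of -0.75, and with upper-quartile scaling it was -0.66. The share of genes above 0 was 46.4% with TMM, 36.0% with upper quartiles and 31.2% with totals. Calls were 2272 higher and 5414 lower with totals, and 2620 higher and 4919 lower with upper quartiles. A rise of less than 0.75 on the log2 scale was therefore a fall relative to library totals, and every smaller rise given below is subject to this. The log2 fold changes below are those with TMM, and shares of called genes are to be read against 39.0% higher and 44.3% lower among all genes. In sorted tissue, a smaller share of cells that express a gene and less of its RNA per cell cannot be told apart. A gene that passed the filter only through the stage where it is high had to differ, so that counts below cover tested members and not all members. Without knowledge of the strand setting, counts are less certain where exons of genes overlap. Among the genes named below, this applies to more than 25% of the exonic bases of several. They include inaF-D (84.1%), Lar (83.6%), AspRS (73.5%), Hr3 (61.8%), Myc (61.2%), dpn (59.3%) and CG15772 (38.6%). SmD3 (37.5%), ftz-f1 (29.4%), Grd (27.5%), Vmat (26.2%) and unc-13 (25.2%) are also among them.

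The largest rises were in genes that were low in larval neurons. SIFaR, the receptor of the neuropeptide SIFamide (3R, 21276664 to 21293998 of BDGP6, the assembly also called dm6), had 1688, 2014 and 1862 CPM in the pupal libraries, against 3.28, 2.11 and 3.40 CPM in the larval libraries. Its log2 fold change was 9.28 (SE 0.15), and separate libraries were a condition for the choice of the genes in this paragraph. ort, a histamine-gated chloride channel by which neurons of the visual system respond to photoreceptors, had 193, 167 and 192 CPM in the pupal libraries, against 0.345, 0.234 and 0.290 CPM in the larval libraries (log2 fold change 9.23, SE 0.19). ps (pasilla, 3R, 9417940 to 9455500), an RNA-binding regulator of splicing, had 6216, 8511 and 7749 CPM in the pupal libraries, against 18.3, 26.8 and 24.0 CPM in the larval libraries (log2 fold change 8.35, SE 0.18, edgeR adjusted p = 7.77e-23). Scp2, a calcium-binding protein gene, had 421 ± 18.3 CPM in pupal and 0.971 ± 0.149 CPM in larval neurons (log2 fold change 8.76, SE 0.17). The tetraspanin gene TM4SF had 4039 ± 224 CPM in pupal and 12.3 ± 3.97 CPM in larval neurons (log2 fold change 8.38, SE 0.18). Jhbp2 (log2 fold change 9.0, SE 0.19), CG31808 (8.75), CG15772 (8.67) and CG13054 (8.47) had rises of the same size. inaF-D (log2 fold change 9.11, SE 0.23) lies in a cluster of inaF genes, and reads may be split between them.

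The largest falls included genes known from neuroblasts, dividing cells and newborn neurons. E(spl)mgamma-HLH, a repressor that Notch signalling switches on, had 0.284, 0.853 and 1.37 CPM in the pupal libraries, against 182, 158 and 143 CPM in the larval libraries (log2 fold change -7.56, SE 0.23). The neuroblast genes sna (log2 fold change -7.52, SE 0.24) and wor (log2 fold change -7.50, SE 0.37) encode zinc finger proteins of the Snail family, with 0.853, 0.142 and 1.37 CPM in pupal and 178, 129.7 and 136 CPM in larval libraries for sna and 0.711, 0.284 and 0.687 CPM in pupal and 144, 77.4 and 89.4 CPM in larval libraries for wor. stg, the phosphatase that starts mitosis, had 0.853, 0.853 and 3.02 CPM in the pupal libraries, against 344, 276 and 250.1 CPM in the larval libraries (log2 fold change -7.50, SE 0.23). nerfin-1, a zinc finger gene needed by young neurons to keep their fate, had 12.7, 13.7 and 18.9 CPM in the pupal libraries, against 1720, 1375 and 1371 CPM in the larval libraries (log2 fold change -6.62, SE 0.16). tap (log2 fold change -7.35, SE 0.24), a gene of the proneural bHLH class, CG3408 (-7.12), lncRNA:CR33938 (-6.98) and Phs (-6.35) fell in the same range. No pupal library reached the level of any larval library in any of these genes, which was a condition of their choice.

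The genes that took the most counts, ranked without those of the mitochondrial genome, changed with stage. In pupal neurons lncRNA:noe, a noncoding RNA, came first with 28190, 28650 and 29360 CPM in pupal and 3180, 3761 and 4004 CPM in larval libraries. It was followed by Atpalpha, the catalytic subunit of the sodium pump (15790, 20570 and 18080 CPM in pupal and 894, 1107 and 1080 CPM in larval libraries), and by Cam, which encodes calmodulin (12300, 17920 and 15760 CPM in pupal and 568, 748 and 739 CPM in larval libraries). sif, an activator of the GTPase Rac (10840 CPM in pupal and 292 CPM in larval neurons, log2 fold change 5.21), and the sodium, calcium and potassium exchanger gene Nckx30C (10670 CPM in pupal and 157 CPM in larval neurons, log2 fold change 6.09) came next. In larval neurons pros, a transcription factor that ends self-renewal in the daughters of neuroblasts, was first (3791, 5121 and 4767 CPM in pupal and 21250, 29340 and 31150 CPM in larval libraries). The second was lncRNA:cherub, a noncoding RNA known from neuroblasts, with 268, 338 and 444 CPM in pupal and 19510, 29310 and 26730 CPM in larval libraries. For both genes every larval library was above every pupal one. Act5C, a cytoplasmic actin (808 CPM in pupal and 7749 CPM in larval neurons), heca (187 CPM in pupal and 7112 CPM in larval neurons) and jim (1422 CPM in pupal and 6361 CPM in larval neurons) followed in larvae, with log2 fold changes of -3.26, -5.25 and -2.16. Per length too, lncRNA:noe had the highest level of the ranked genes in pupal neurons, at 26680 CPM per kb, against 3387 in larval neurons.

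**Figure D2:**
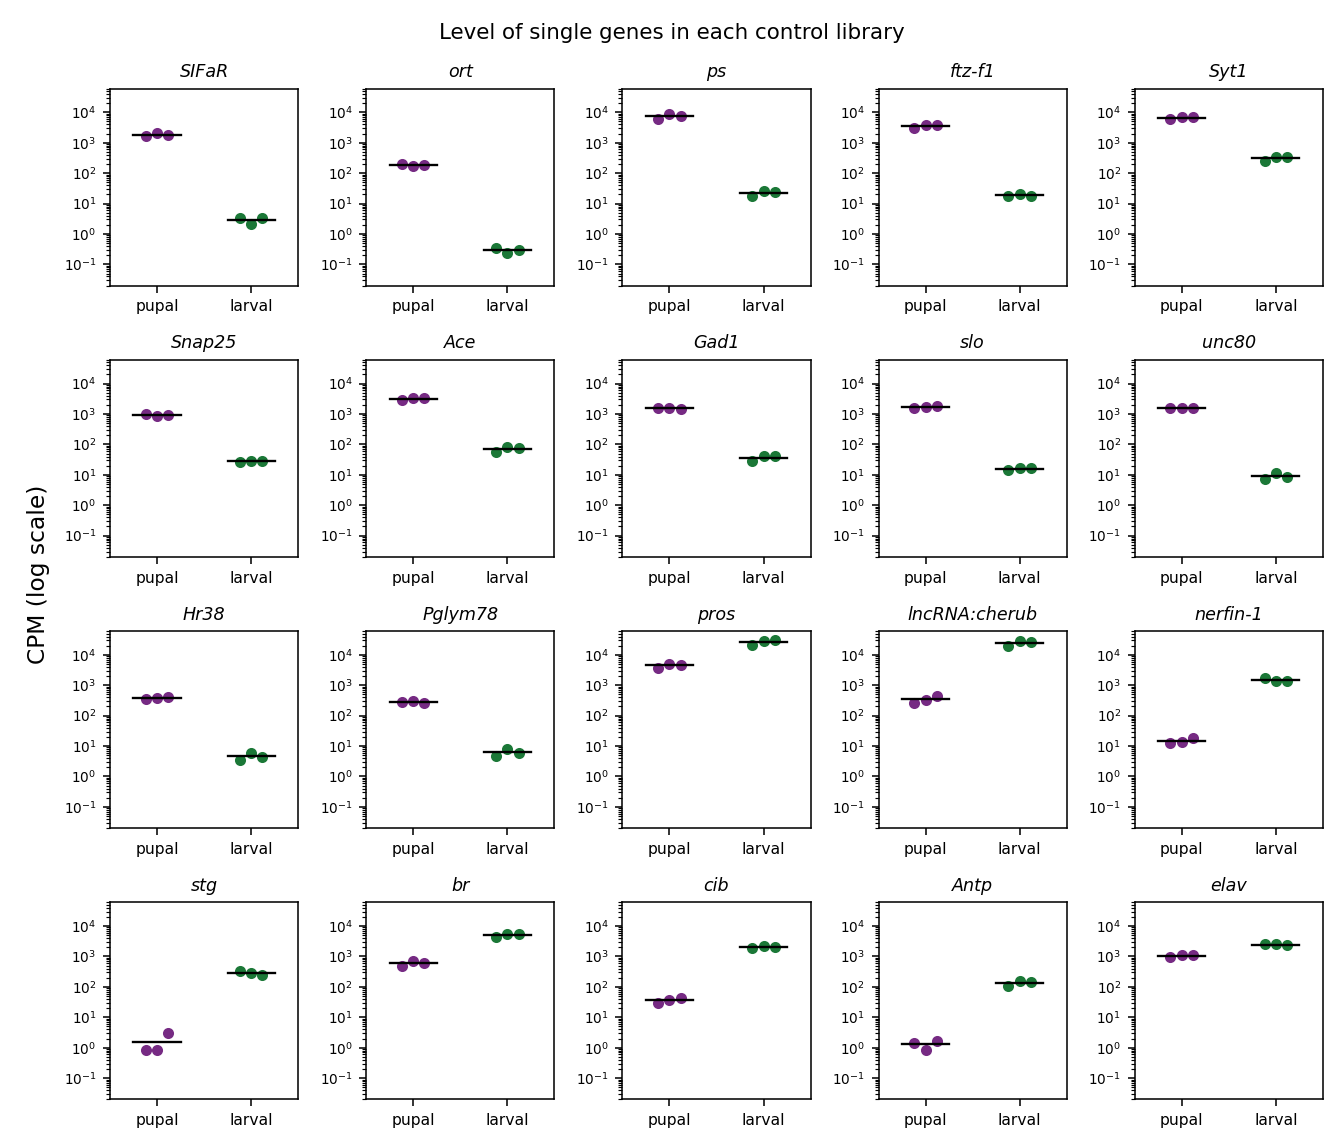
Levels of 20 genes in each of the 3 pupal (left, purple) and 3 larval (right, green) control libraries, in CPM on a log scale that is the same in every panel, with bars at the group means. The groups are separate in every panel, 12 genes being higher in pupal and 8 in larval neurons.

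Most genes of transmitter release were higher in pupal neurons. Of 31 genes of vesicle fusion and the active zone, 30 rose and 1 fell, 26 by at least 4-fold, with a median log2 fold change of 3.78. The calcium sensor gene Syt1 had 5811, 7192 and 6857 CPM in the pupal libraries, against 255, 344 and 349.5 CPM in the larval libraries (log2 fold change 4.39, SE 0.13). Its relatives Syt12 (log2 fold change 8.22, SE 0.16) and Sytalpha (log2 fold change 5.97, SE 0.19) rose further. Tomosyn (5.28), an inhibitor of SNARE assembly, the SNARE gene Snap25 (5.04) and the active zone gene Fife (4.88) were also among the largest rises. Rop, the fly's Unc18 protein, rose by 4.70 (SE 0.10). The scaffold genes brp (4192 ± 339.7 CPM in pupal and 626 ± 79.2 CPM in larval neurons) and unc-13 (4213 ± 180.2 CPM in pupal and 1101 ± 56.9 CPM in larval neurons) rose less. Liprin-alpha, which organises active zones early in their assembly, was the 1 gene that fell (142, 144 and 145 CPM in pupal and 214, 174 and 198 CPM in larval libraries, log2 fold change -0.45).

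Genes of vesicle retrieval rose too, with 18 of 19 tested endocytosis genes higher and a median of 2.46. The largest of these rises were in the membrane-bending genes nwk (4.11), Amph (4.06), EndoB (3.92) and EndoA (3.70). Dynamin, encoded by shi, had 2142, 1741 and 1881 CPM in pupal and 164, 142 and 141 CPM in larval libraries. Hsc70-4, the chaperone that strips clathrin coats and also serves the whole cell, fell (-0.75). The genes stnA and stnB, the 2 matched members below the filter, had 0 reads in every control library, and the reason was not tested. The 16 tested genes of the vacuolar proton pump, which acidifies vesicles and lysosomes, were split by paralogue, with 14 higher and 2 lower. Vha68-1 had 1324, 1096 and 1138 CPM in pupal and 58.9, 53.4 and 54.6 CPM in larval libraries, whereas its paralogue Vha68-2 had 0.853, 1.14 and 0.824 CPM in pupal and 7.42, 6.80 and 6.52 CPM in larval libraries. Vha100-1 (685 CPM in pupal and 96.0 CPM in larval neurons) likewise rose by 2.84 where Vha100-2 (0.562 CPM in pupal and 1.71 CPM in larval neurons) fell by 1.58 on the log2 scale. Vha13 (4.84), Vha14-1 (4.27) and Vha55 (4.12) had the other large rises of the pump.

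Most tested genes that make, load and clear transmitters rose in each list examined. All 4 acetylcholine genes were called higher. Ace, the esterase that ends the signal, had 2837, 3345 and 3294 CPM in the pupal libraries, against 58.3, 81.4 and 78.2 CPM in the larval libraries (log2 fold change 5.45, SE 0.13). ChT, which returns choline to the terminal, rose by 4.23 (SE 0.10), ChAT, the synthetic enzyme, by 4.18 (SE 0.09), and VAChT, the vesicular transporter whose gene lies within the ChAT locus, by 3.26 (SE 0.10). All 12 tested genes of glutamate, GABA and glycine handling rose, with a median of 3.20. The glycine transporter gene GlyT had 509, 525 and 508 CPM in pupal and 1.84, 2.35 and 1.59 CPM in larval libraries (log2 fold change 8.06, SE 0.13). Gad1, which makes GABA, had 1574, 1559 and 1433 CPM in pupal and 29.3, 40.7 and 40.1 CPM in larval libraries (log2 fold change 5.38, SE 0.12), the vesicular GABA transporter gene VGAT 284 CPM in pupal and 30.8 CPM in larval neurons and the vesicular glutamate transporter gene VGlut 1031 CPM in pupal and 150.4 CPM in larval neurons. Gs2 (6.30) and Eaat1 (4.57), which in the brain are known mainly from glia, were among the largest rises. Per length, pupal levels were 423 CPM per kb for VAChT, 180.4 for VGlut, 413 for Gad1, 105 for VGAT and 36.9 for the monoamine transporter gene Vmat, and the larval levels were 44.2, 26.3, 9.97, 11.4 and 1.95 CPM per kb. Of 13 tested monoamine genes, 12 rose, led by Ddc (129, 119.5 and 121 CPM in pupal and 1.5, 1.56 and 1.81 CPM in larval libraries) and ple, the tyrosine hydroxylase (155, 206 and 179.9 CPM in pupal and 1.90, 3.99 and 3.48 CPM in larval libraries). e (ebony), which joins dopamine to beta-alanine, rose by 3.46. The histamine synthesis gene Hdc did not pass the filter, with 1, 2 and 2 reads in pupal and 1, 3 and 1 in larval libraries. CarT, a carcinine transporter gene, fell (-0.84), a call that was lost without pupal control replicate 1 (-0.81) or 2 (-0.58) or larval control replicate 1 (-0.81) or 3 (-0.79).

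Receptor genes of the receiving side were mostly higher. All 9 tested nicotinic acetylcholine receptor subunits were higher, with nAChRbeta1 (5.28), nAChRalpha3 (4.07), nAChRalpha7 (3.33) and nAChRalpha6 (3.27) rising most and nAChRalpha1 least (1.64). Of 10 inhibitory ligand-gated channels 9 rose. The GABA receptor gene Rdl had 3046, 4354 and 3986 CPM in the pupal libraries, against 74.7, 119 and 123 CPM in the larval libraries (log2 fold change 5.17, SE 0.18), Grd rose by 6.4 (SE 0.20) and the proton-gated chloride channel gene pHCl-1 by 6.38 (SE 0.11). CG8916 (5.27) rose like these. SecCl, at 1.56, 0.569 and 0.549 CPM in pupal and 1.96, 1.41 and 2.17 CPM in larval libraries, fell (-1.05), a call that was lost without pupal control replicate 2 (-0.81) or 3 (-0.79) or larval control replicate 1 (-1.0) or 3 (-0.93). HisCl1, the other histamine receptor gene beside ort, rose at a low level, with 3.12 CPM in pupal and 0.469 CPM in larval neurons (log2 fold change 2.69). Among 9 tested ionotropic glutamate receptor genes 7 rose, including GluRIB (4.12), GluRIA (3.81) and the NMDA receptor genes Nmdar1 (3.37) and Nmdar2 (2.58). Grik rose by 4.19 and GluRIIA, a subunit of the muscle receptor, by 2.74. Ekar fell (-1.78) and KaiR1D was not called, at 87.8, 89.2 and 90.2 CPM in pupal and 87.5, 91.7 and 88.3 CPM in larval libraries. The muscle receptor genes GluRIIB, GluRIIC, GluRIID and GluRIIE did not pass the filter.

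All 23 tested metabotropic receptors rose by at least 4-fold, with a median of 4.18. The octopamine receptor genes Octbeta2R (570.3, 642 and 635 CPM in pupal and 5.18, 5.71 and 5.94 CPM in larval libraries), Oamb (5.49) and Octbeta1R (5.19), the muscarinic receptor gene mAChR-B (5.67) and the serotonin receptor gene 5-HT2A (5.58) rose most. DopEcR, a receptor for dopamine and ecdysone, had 1864, 2830 and 2432 CPM in pupal and 48.4, 71.7 and 75.4 CPM in larval libraries. mAChR-A had the smallest rise (2.19, SE 0.10).

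Most ion channel genes rose. Of 19 tested potassium channel genes 18 were called higher and none lower, with a median of 3.20. The calcium-activated channel gene slo had 1568, 1718 and 1771 CPM in the pupal libraries, against 14.7, 17.3 and 16.2 CPM in the larval libraries, its partner Slob rose by 6.26 (SE 0.14) and the voltage-gated channel gene Shab had 1918, 2509 and 2314 CPM in pupal and 18.4, 23.6 and 25.4 CPM in larval libraries (log2 fold change 6.65). SLO2, a sodium-activated relative of slo, rose by 5.69. Sh, the Shaker channel, was already at 556 CPM in larval neurons and rose by 2.81. Irk1 was near the floor at both stages (1.85, 0.853 and 1.1 CPM in pupal and 1.09, 0.860 and 1.23 CPM in larval libraries). Of 18 sodium, calcium and chloride channel genes 16 rose. unc80 had 1531, 1586 and 1597 CPM in the pupal libraries, against 7.13, 11.2 and 8.76 CPM in the larval libraries (log2 fold change 7.46, SE 0.13) and unc79 rose by 7.10 (SE 0.12), and both encode partners of the sodium leak channel, whose own gene, na, rose by 2.34 (SE 0.08). The T-type calcium channel gene Ca-alpha1T had 5399, 7043 and 6389 CPM in pupal and 76.1, 88.5 and 94.7 CPM in larval libraries (log2 fold change 6.18). Teh3, a sodium channel auxiliary subunit, rose by 5.33. The chloride channel genes ClC-a (-2.64) and ClC-b (-2.27) fell.

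Neuropeptide genes were divided. Of 42 precursor genes in the count table only 20 passed the filter, and 15 of these rose and 4 fell. The precursor gene sNPF had 504, 439 and 489 CPM in the pupal libraries, against 3.57, 3.05 and 2.97 CPM in the larval libraries. AstC, which had 1 to 2 reads in each larval library, Tk (82.5, 72.8 and 65.1 CPM in pupal and 0.345, 0.781 and 1.01 CPM in larval libraries), spab (6.52), Proc (5.87), Dh31 (5.55) and Dh44 (4.83) also rose. SIFa, the ligand of SIFaR, fell and was rare at both stages (0.142, 0.142 and 0.412 CPM in pupal and 0.691, 2.11 and 1.09 CPM in larval libraries), and CNMa (-3.69), Akh (-2.33) and ITP (-1.07, and -0.72 without pupal control replicate 3, where it was not called) fell at low levels. Pdf had 0 reads in each pupal library and 1 to 3 in each larval library. Of 34 peptide receptors 32 rose, among them Pdfr, the receptor of PDF (124, 149.9 and 145 CPM in pupal and 0.978, 1.72 and 1.52 CPM in larval libraries), Lgr1 (6.46), AstA-R1 (5.05) and Dh44-R1 (4.66), and none fell. Among 11 genes of peptide processing 9 rose, led by IA-2 (5.25) the convertase gene amon (4.19), Pal2 (3.53) and 7B2 (3.49), and dimm, a transcription factor of peptide-secreting cells, fell (0.569, 0.853 and 0 CPM in pupal and 1.38, 2.03 and 1.59 CPM in larval libraries).

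Most genes of signalling within the cell rose as well. Of 18 tested genes of the cAMP and calcium pathways known from fly learning, 17 rose. Pkc53E had 1040, 1074 and 1092 CPM in pupal and 7.65, 9.38 and 9.63 CPM in larval libraries (log2 fold change 6.92, SE 0.11), and the kinase gene Pka-C3 (6.90) and Rgk1 (5.02) rose as well. The learning genes rut (1.90) and dnc (1.70) rose less. for, a cGMP-dependent kinase gene, fell (-3.45). Among 10 genes known to respond to neuronal activity 8 rose, with the nuclear receptor gene Hr38 at 363, 394 and 420.4 CPM in pupal and 3.51, 6.10 and 4.42 CPM in larval libraries (log2 fold change 6.42, SE 0.26), whereas puc, a phosphatase gene downstream of JNK, fell (-1.26). CG14186 (4.82), CG17778 (4.70) and Pde8 (4.54) were among the risers.

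**Figure D3:**
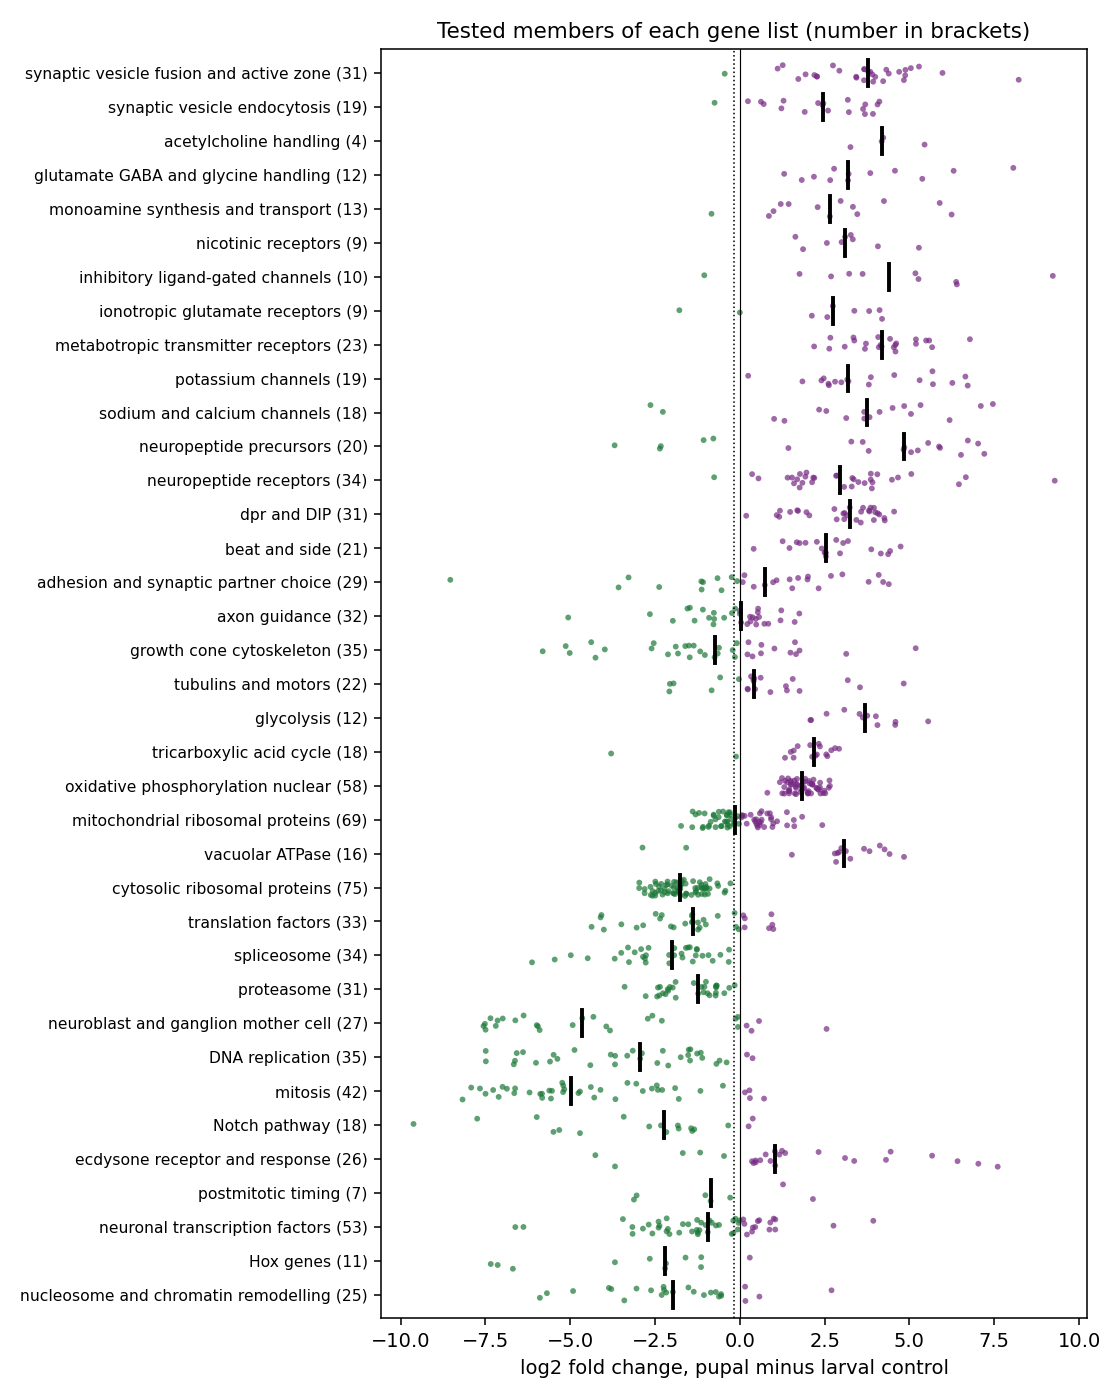
Each point is a tested gene of the list named on the left, placed by its log2 fold change (pupal minus larval control), with a black bar at the list median. The solid line marks 0 and the dotted line the median of all genes, -0.17; lists of synaptic, channel and energy genes lie to its right and lists of protein synthesis, splicing and cell division to its left.

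Most genes of cell surface proteins by which neurons find partners rose, whereas classical guidance genes went both ways. Of 31 tested dpr and DIP genes, a family of immunoglobulin proteins that bind each other across synapses, 30 rose and none fell, with a median of 3.24. The largest rises were in dpr3 (172, 202 and 184 CPM in pupal and 5.70, 10.2 and 8.40 CPM in larval libraries), dpr18 (4.27), dpr10 (4.26) and dpr2 (4.11). Among the DIP genes, DIP-delta was at 1.09, DIP-eta at 1.16 and DIP-beta at 1.18, and DIP-alpha was not called (46.2, 40.7 and 38.7 CPM in pupal and 40.6, 33.3 and 36.1 CPM in larval libraries). All 21 tested beat and side genes, another such pair of families, rose, from side-V (0.41, a fall with library totals) to beat-VII (404, 396 and 398 CPM in pupal and 13.1, 17 and 14.9 CPM in larval libraries, log2 fold change 4.74). beat-Ib (4.43), beat-IIIb (4.37) and beat-IIb (4.16) followed.

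Other adhesion genes went both ways, with 16 higher and 10 lower of 29 and a median of 0.73 that was -0.01 when scaled by library totals. Synapse organisers rose. Nrx-1 (neurexin) had 3004, 3480 and 3154 CPM in pupal and 148, 186 and 182 CPM in larval libraries, and the neuroligin genes Nlg4 (4.39), Nlg3 (3.80) and Nlg2 (3.02) rose with it. The cadherin gene CadN2 rose by 4.09 (SE 0.09), while CadN was not called (1556, 1476 and 1611 CPM in pupal and 1422, 1461 and 1496 CPM in larval libraries). Ama (amalgam), which encodes an immunoglobulin protein that binds neurotactin, had no read in any pupal library and 4.47 CPM in larval neurons. Nrt, neurotactin, fell (84.3, 75.7 and 73.5 CPM in pupal and 1045, 891 and 850.1 CPM in larval libraries), as did Lac (-3.28) and rst (-2.38). Among 32 tested guidance genes 15 were higher and 13 lower, with a median of 0.02 (-0.73 with library totals). otk fell most (10.9, 10.9 and 13.6 CPM in pupal and 414, 412 and 362 CPM in larval libraries), followed by the phosphatase gene Ptp69D (-2.65), dlp (-1.98) and Sema1b (-1.55), while Sdc (1.75) and Lar (1.62) rose. Ptp4E (1.22) and comm (1.2), which lowers Robo at the cell surface, rose as well.

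Genes of the growth cone cytoskeleton went both ways, and several actin regulators fell. Of 35 tested genes 20 fell and 11 rose. cib, which binds actin monomers, had 28.9, 36.4 and 43.0 CPM in the pupal libraries, against 1849, 2152 and 2093 CPM in the larval libraries (log2 fold change -5.81, SE 0.13). The cofilin gene tsr had 6.83, 6.26 and 6.87 CPM in pupal and 249, 220 and 233 CPM in larval libraries and the profilin gene chic 95.7, 134 and 131 CPM in pupal and 2077, 2440 and 2385 CPM in larval libraries. The bundling gene sn (singed) fell by 4.38 on the log2 scale. The microtubule-associated gene futsch rose (3340 ± 95.2 CPM in pupal and 380.3 ± 17 CPM in larval neurons), as did capu (5.18) and msps (1.76). Tubulins and motors gave 15 rises and 5 falls among 22, with a median of 0.41 (-0.34 with library totals). unc-104, the kinesin that carries synaptic vesicle precursors, had 3865, 3479 and 3735 CPM in pupal and 396, 404 and 422 CPM in larval libraries, and ringer rose by 4.83. alphaTub84B, an alpha tubulin gene used in many tissues, fell (307, 291 and 298 CPM in pupal and 1425, 1234 and 1085 CPM in larval libraries), as did Map205 (-1.96). Kif3C (3.54) and Klp68D (1.76) of the kinesin-2 motors rose and the dynein gene Dhc62B (-2.08) fell. Innexins, the gap junction proteins of flies, were split, with shakB, the channel of electrical synapses, at 484, 644 and 655 CPM in pupal and 39.0, 53.3 and 57.6 CPM in larval libraries, and Inx2 (7.96, 9.24 and 11.8 CPM in pupal and 420.3, 353 and 373 CPM in larval libraries), Inx3 (-4.83) and ogre (-4.81) lower.

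Most genes of energy metabolism were higher in pupal neurons. All 12 tested glycolytic genes rose by at least 4-fold. Pglym78 had 290.4, 311 and 269 CPM in the pupal libraries, against 4.66, 8.21 and 6.01 CPM in the larval libraries (log2 fold change 5.55, SE 0.13), and PyK (4.59), Pfk (4.58) and Ald1 (4.06) followed. Of 18 genes of the tricarboxylic acid cycle 16 rose, led by Pdha (2.92), Idh3g (2.81) and Mdh2 (2.69). muc, a subunit of the pyruvate dehydrogenase complex, rose by 2.58. Idh, the NADP-dependent isocitrate dehydrogenase, was the 1 that fell (8.11, 7.68 and 9.34 CPM in pupal and 108, 120.4 and 122 CPM in larval libraries). All 58 tested nuclear genes of the respiratory chain rose, with log2 fold changes between 0.81 (UQCR-11) and 2.65 (ND-23) and a median of 1.84. Beside ND-23, the largest of these were in ox (2.64), RFeSP (2.62) and ND-42 (2.52). The 13 protein genes of the mitochondrial genome rose by a similar median of 1.81, and their summed level was 12500 to 14680 CPM in pupal and 3270 to 4593 CPM in larval libraries. These ranged from 1.46 for mt:CoII to 2.62 for mt:ATPase8, whose libraries overlapped and which was not called without pupal control replicate 1 (1.72). Mitochondrial ribosomal proteins, by contrast, had 26 higher and 23 lower of 69, with a median of -0.14 (-0.89 with library totals). Their sums were 584.6 to 610.5 CPM in pupal and 568.9 to 583.3 CPM in larval libraries. Among these mRpL55 (2.43) and mRpL24 (1.84) rose most and mRpS18B (-1.73) and mRpL39 (-1.40) fell most. Autophagy genes rose modestly, 16 higher and 5 lower of 22 tested, with a median of 0.94 (0.20 with library totals). Atg101 (2.39) and Atg8a (1.68) were highest and Mitf (-1.55) and Atg3 (-1.31) lowest. Atg1 (1.54) and Atg9 (1.47), which act early in the formation of autophagosomes, rose, and Atg16 (-0.93) fell.

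Transcripts of most genes for protein synthesis and for the proteasome were lower in pupal neurons. All 75 tested cytosolic ribosomal protein genes fell, and their sum was 8898 to 9566 CPM in pupal and 26440 to 30090 CPM in larval libraries. The falls ranged from -2.97 (sta) to -0.28 (RpL15) on the log2 scale. RpS20 (-2.97), RpS5a (-2.81) and RpS16 (-2.81) were close to sta. RpS14a has a near-identical copy, and reads may be split between both. Of 33 translation factors 23 fell, most of all the elongation factor genes eEF1beta (-4.37) and eEF1gamma (23.9, 23.3 and 25.6 CPM in pupal and 448, 415 and 370 CPM in larval libraries), the inhibitor gene Thor (-4.11) and eIF2gamma (-4.01). The termination factor gene eRF1 (0.93), eIF5 (0.99) and eIF1A (0.96) rose. Of 17 aminoacyl tRNA synthetases 13 fell, among them AlaRS (-2.95), and none rose. GlyRS (-2.63), AspRS (-2.19) and SerRS (-2.18) followed. Of 35 ribosome biogenesis genes 21 fell, with the histone and ribosome chaperone genes Nlp (4.12, 3.13 and 5.22 CPM in pupal and 242, 229 and 225 CPM in larval libraries) and Nph (-5.42) first, and 4 rose, Surf6 (1.06) most. pes (-3.92) and mbm (-3.14) fell and RIOK1 (0.98) and Tsr1 (0.58, a fall with library totals) rose.

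All 34 tested spliceosome genes fell, with a median of -2.01. Core Sm proteins led, SmF with 0.853, 0.853 and 1.65 CPM in the pupal libraries, against 67.4, 88.2 and 83.1 CPM in the larval libraries (log2 fold change -6.13, SE 0.21), SmB with a log2 fold change of -5.46, SmD1 with -4.99 and SmD3 with -4.49. Prp8, the largest spliceosome protein, had 43.0, 40.4 and 40.1 CPM in pupal and 518, 449.9 and 427 CPM in larval libraries. Of 31 proteasome genes 30 fell, Prosbeta3 (-3.40) and Prosalpha6 (-2.78) most, and Rpn13 was not called (-0.15, SE 0.08). Prosalpha5 (-2.44) and Prosalpha3 (-2.41) were next. Among 27 chaperone genes 15 fell and 8 rose. Every tested subunit of the CCT chaperonin fell, from CCT1 (3.13, 2.70 and 3.43 CPM in pupal and 71.7, 64.8 and 59.0 CPM in larval libraries) over CCT7 (-3.77), CCT2 (-3.66) and CCT5 (-3.05) to CCT4 (-2.21), and the small heat shock genes Hsp23 (362, 427 and 439 CPM in pupal and 2265, 2048 and 2017 CPM in larval libraries) and Hsp27 (-2.09) fell too. The co-chaperone gene stv rose (1764, 3303 and 2714 CPM in pupal and 229.5, 365 and 302 CPM in larval libraries), with Hsp60A (1.35) and Hsf (1.07). Copies of Hsp70 are near-identical and are left aside. Of 90 tested snoRNAs, which guide the modification of ribosomal RNA, 60 were lower and 2 higher.

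Genes of neural progenitors were lower in pupal neurons. Of 27 tested genes of neuroblasts and ganglion mother cells 20 fell, each by at least 4-fold, and 4 rose. The polarity genes pon (-6.38) and insc (-5.99) fell with the factors named above. dpn, a repressor that maintains neuroblasts, had 1, 1 and 2 reads in the pupal libraries and 665, 301 and 306 in the larval libraries. brat, a translational repressor that ends self-renewal, had 306, 329.6 and 397 CPM in pupal and 4750, 4746 and 5184 CPM in larval libraries. aPKC, a polarity kinase that also works in neurons, rose (487, 554 and 525 CPM in pupal and 77.1, 92.5 and 97.0 CPM in larval libraries). stau (0.56) and par-6 (0.34), which work in polarised cells of many kinds, rose, both a fall with library totals. Temporal factors of neuroblasts gave 8 falls and 3 rises of 14, with cas at 0.569, 0.853 and 0.412 CPM in pupal and 68.1, 112 and 85.8 CPM in larval libraries, slp2 at -5.34 and opa at -4.49, while hb (2.39) and ey (1.0) rose. tll, an orphan receptor gene, fell by 4.33, and Kr rose by 0.69, a fall with library totals and not called without pupal control replicate 1 (0.69) or 2 (0.64) or larval control replicate 1 (0.45).

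Cell division genes were lower in pupal neurons. Of 35 tested replication genes 33 fell and none rose, with a median of -2.94 (-2.89 with the gene that had no pupal read set at its bound). The sliding clamp PCNA had 1, 0 and 0 reads in pupal and 221, 123 and 127 in larval libraries, and the helicase subunit Mcm2 had 0, 0 and 1 in pupal and 241, 122 and 112 in larval libraries. The polymerase gene PolA1 (-6.63) fell as well, and the origin recognition gene Orc2 had no read in pupal and 1.19 CPM in larval neurons. Of 42 mitosis genes 38 fell, with a median of -4.97 (-4.55 with 2 such genes at their bounds). Incenp had 3, 2 and 1 reads in pupal and 888, 574 and 551 in larval libraries. The kinase gene aurB (-7.92) and feo (-7.66) were among the largest falls, and pim, which encodes securin, had no read in pupal and 3.45 CPM in larval neurons. cnn (0.28), vtd (0.30) and the kinase gene aurA (0.71) were the 3 that rose, each reversed with library totals, and aurA was not called without pupal control replicate 1 (0.52) or 3 (0.77) or larval control replicate 1 (0.77) or 3 (0.53). CycB had 0.569, 0 and 0.549 CPM in pupal and 66.6, 51.6 and 41.8 CPM in larval libraries. Of 13 genes of the G1 phase and of cell cycle exit 12 fell. The inhibitor gene dap, which is switched on as cells leave the cycle, had 1.42, 0.853 and 2.61 CPM in pupal and 166, 119.8 and 102 CPM in larval libraries, E2f1 37.7, 42.5 and 47.1 CPM in pupal and 597, 675 and 670.2 CPM in larval libraries and Myc 20.6, 20.8 and 25.1 CPM in pupal and 178, 212 and 216 CPM in larval libraries. The cyclin gene CycD (-5.38) and trbl (-4.99) fell as well, and Cdk4, which encodes the kinase partner of CycD, had no read in pupal and 1.5 CPM in larval neurons. fzr, which holds cells out of the cycle, was the 1 that rose (0.66, below the shift between scalings).

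Notch signalling genes fell as well, 16 of 18 tested genes. The receptor gene N had 3.98, 3.98 and 3.98 CPM in pupal and 202, 144 and 133 CPM in larval libraries (log2 fold change -5.33, SE 0.17). Its targets E(spl)mbeta-HLH (-5.99) and E(spl)malpha-BFM (-5.50) and the nuclear partner gene Su(H) (-3.42) fell as well. E(spl)m3-HLH fell by 7.74. E(spl)m5-HLH had no read in any pupal library against 9.49 CPM in larval neurons. The ligase gene mib1 rose by 0.38, a rise that was a fall with library totals.

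Most genes of the ecdysone response were higher in pupal neurons. Of 26 tested genes 20 rose and 5 fell, with a median of 1.04 (0.29 with library totals). The receptor gene EcR had 803, 868 and 896 CPM in the pupal libraries, against 144, 184 and 186 CPM in the larval libraries (log2 fold change 2.32, SE 0.10). ftz-f1, a nuclear receptor that follows a fall of ecdysone, had 3116, 3928 and 3736 CPM in the pupal libraries, against 18, 20.5 and 17.1 CPM in the larval libraries (log2 fold change 7.60, SE 0.16, edgeR adjusted p = 8.42e-23). Hr3, which acts between the ecdysone pulse and ftz-f1, had 144, 201 and 186 CPM in pupal and 3.11, 3.91 and 3.48 CPM in larval libraries. Eip63F-1 (7.03), Eip78C (4.44), Eip74EF (3.37) and Blimp-1 (3.10) rose as well. Among the 5 that fell, Sox14 had 0.284, 1.28 and 2.06 CPM in pupal and 22, 23.7 and 25.1 CPM in larval libraries and vri 2.28, 2.70 and 2.75 CPM in pupal and 29.4, 33.3 and 37.1 CPM in larval libraries, and the transporter gene E23 fell by 1.68 on the log2 scale. Eip75B was high at both stages and was not called (2362, 2864 and 2943 CPM in pupal and 1902, 2138 and 2138 CPM in larval libraries).

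Genes that time the fate of neurons after their last division changed in both directions. br, a zinc finger gene of the larval to pupal transition, had 484, 689 and 592 CPM in the pupal libraries, against 4529, 5467 and 5384 CPM in the larval libraries. Syp, an RNA-binding protein gene of late-born neurons, had 136, 139 and 154 CPM in pupal and 1175, 1176 and 1190 CPM in larval libraries. Both groups were separate in each. mamo (log2 fold change -0.86, SE 0.14) and Eip93F (log2 fold change -1.02, SE 0.09) fell less, and chinmo fell by 0.29 (SE 0.11) with overlapping libraries (881, 1071 and 1139 CPM in pupal and 1072, 1365 and 1331 CPM in larval libraries). The fall of chinmo was not called without pupal control replicate 1 (-0.15) or larval control replicate 2 (-0.22) or 3 (-0.24). ab rose (151, 179.8 and 171 CPM in pupal and 32.0, 39.9 and 41.0 CPM in larval libraries), and lncRNA:let7C, the host transcript of the let-7 microRNA, rose at a low level (5.41, 8.82 and 7.69 CPM in pupal and 2.99, 2.11 and 3.91 CPM in larval libraries). lin-28 did not pass the filter.

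Transcription factors of neuronal identity were more often lower. Of 53 tested 31 fell and 13 rose. Mef2 had 455, 502 and 472 CPM in pupal and 27.4, 32.8 and 33.5 CPM in larval libraries (log2 fold change 3.93, SE 0.10) and the sexual behaviour gene fru 252, 281 and 267 CPM in pupal and 34.9, 38.7 and 44.7 CPM in larval libraries, and onecut (1.04) and acj6 (1.04) rose less. zfh1 (-2.69), CrebA (-3.17) and C15 (-3.45) fell with nerfin-1 and pros. unpg, a homeobox gene, had no read in pupal and 0.982 CPM in larval neurons. The remaining 9 factors were not called.

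Hox genes, which mark position along the body axis, were lower, 10 of 11 listed genes and cofactors. Antp had 1.42, 0.853 and 1.65 CPM in the pupal libraries, against 109, 155 and 147 CPM in the larval libraries (log2 fold change -6.69, SE 0.23). Ubx had 2, 0 and 1 reads in pupal and 367, 330 and 383 in larval libraries, and abd-A had 3, 0 and 2 in pupal and 454, 570 and 471 in larval libraries. tsh, a trunk gene, had 6.26, 7.25 and 5.77 CPM in pupal and 74.0, 89.9 and 84.3 CPM in larval libraries, Abd-B 1.14, 1.14 and 0.687 CPM in pupal and 2.99, 8.75 and 7.46 CPM in larval libraries and Scr 1.99, 1.85 and 2.33 CPM in pupal and 6.79, 11.2 and 10.4 CPM in larval libraries. Dfd (-2.20), pb (-1.60) and lab (-1.14), genes of the head, were low at both stages and fell, lab losing its call without pupal control replicate 1 (-1.12) or 3 (-0.81). The cofactor exd rose by 0.29, a rise that was a fall with library totals. Antp, Ubx, abd-A, Abd-B and tsh are expressed in the ventral nerve cord and not in most of the brain, and whether the same parts of the nervous system were sorted at both stages is not given in the labels. The part of this in the other differences was not tested.

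Chromatin genes were mostly lower. Of 25 nucleosome and remodelling genes 21 fell. HmgD had 21.2, 30.1 and 35.6 CPM in pupal and 1806, 1814 and 1564 CPM in larval libraries, the nuclear envelope genes LBR 3.84, 6.4 and 5.36 CPM in pupal and 286, 264 and 256 CPM in larval libraries and Lam 19.3, 22.8 and 23.2 CPM in pupal and 704, 652 and 619.8 CPM in larval libraries, and Ssrp, a histone chaperone subunit, fell by 3.86. LamC, the other lamin gene, rose at a low level (1.14, 2.13 and 1.37 CPM in pupal and 0.230, 0.313 and 0.145 CPM in larval libraries). Chd1 rose by 0.58, a fall with library totals. Of 27 Polycomb and Trithorax genes 21 fell, with mor (-3.52), ash2 (-3.51), Caf1-55 (-2.78) and brm (-2.72) lowest, and 4 rose, esc (46.2, 43.5 and 51.1 CPM in pupal and 4.49, 4.53 and 4.71 CPM in larval libraries) and Pc (1.25) most. Of 16 insulator genes 14 fell, among them insv (-2.14), Ibf1 (-2.03), Chro (-1.70) and Cp190 (-1.44), with shep the 1 that rose. Su(z)2 rose by 1.0 and the insulator gene Ibf2 fell by 1.87.

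RNA-binding proteins of neurons gave 12 rises and 12 falls among 27, with a median of 0.18 (-0.58 with library totals). Beside ps, orb2 (622, 541 and 596 CPM in pupal and 42.4, 41.5 and 39.3 CPM in larval libraries), bru2 (3.18) and orb (2.36) rose, while how (-4.74), ncm (-3.95), Fmr1 (95.2, 111 and 106 CPM in pupal and 506, 565 and 543 CPM in larval libraries) and fne (935, 1240 and 1204 CPM in pupal and 2007, 2391 and 2598 CPM in larval libraries) fell, the last of these a paralogue of elav. In the small RNA pathway, enzymes of microRNA processing fell, Dcr-1 with 10 CPM in pupal and 55.0 CPM in larval neurons, drosha by 1.5 and pasha by 1.46. The list had 5 rises and 7 falls among 13 tested genes, with aub (-3.92) and Ranbp21 (-2.15) lowest. In dosage compensation and sex determination, lncRNA:roX1, which coats the male X chromosome, had 2.70, 1.14 and 1.79 CPM in pupal and 121, 89.2 and 80.9 CPM in larval libraries, mof had 10.2, 10.8 and 9.20 CPM in pupal and 91.1, 83.3 and 82.3 CPM in larval libraries and Sxl rose (1.01). Of 15 tested genes of this list 4 rose and 7 fell, dsx by 2.40 and vir by 2.06. roX2 was below the filter, with 1 to 5 reads in pupal and 5 to 11 in larval libraries. Clock genes gave 7 rises, Pdp1 (999, 1400 and 1245 CPM in pupal and 36.2, 49.2 and 52.3 CPM in larval libraries) and sgg (2.35) with the peptide receptor named above first, and 5 falls. The falls included CkIIbeta (-1.37) and cyc (-0.90), and jet rose by 1.75. The median of the clock genes was 0.11 (-0.64 with library totals). Among cell death genes egr, the fly's tumour necrosis factor, had 0, 0 and 2 reads in pupal and 726, 383 and 352 in larval libraries, rpr (-1.62) and Dronc (-1.29) fell, and Diap2, an inhibitor, rose (2.02). Of 15 tested death genes 4 rose, hid by 0.97, and 9 fell, Debcl by 4.30, Dredd by 3.81 and Drice by 2.02. Genes of oxidative and xenobiotic stress gave 6 rises and 6 falls among 15, with a median of 0.15 (-0.61 with library totals). Sod3 (2.84), Gclc (1.97) and Keap1 (1.58) were highest and catalase, Cat (-3.44), GstS1 (-3.18) and Trxr1 (-2.18) lowest.

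Markers of other cell types were examined beside these results. Pan-neuronal markers summed to 29140 to 34290 CPM in pupal and 6735 to 7738 CPM in larval libraries, with 8 of 10 higher, among them cpx (3.78), and elav and fne lower. The summed level of 14 tested glial markers was 966.5 to 1079 CPM in pupal and 214.2 to 242.1 CPM in larval libraries, most of the pupal sum being Eaat1 (737 CPM in pupal and 30.8 CPM in larval neurons), and of the 14 genes 7 were higher and 5 lower. The glial genes repo (-3.16), loco (-5.44) and moody (-2.08) fell, whereas Gs2, Eaat1 and the astrocyte gene alrm (4.55, 5.41 and 6.46 CPM in pupal and 0.518, 1.25 and 0.869 CPM in larval libraries) rose. htl fell by 2.89. Of 11 hemocyte markers 6 were tested, with a sum of 347.3 to 400.1 CPM in pupal and 50.35 to 58.15 CPM in larval libraries that came mainly from Pxn (315, 273 and 279.8 CPM in pupal and 30.4, 31.4 and 33.1 CPM in larval libraries) and crq (75.4, 61.6 and 71.0 CPM in pupal and 11.2, 11.4 and 11.4 CPM in larval libraries), while Hml had 0 to 2 reads in pupal and 5 to 12 in larval libraries. The hemocyte factor gene srp fell (0.142, 0.142 and 0.275 CPM in pupal and 1.67, 4.77 and 2.46 CPM in larval libraries). Muscle markers summed to 109.4 to 125.3 CPM in pupal and 328.3 to 346.1 CPM in larval libraries, most of it Tm1 (-1.79). Of 11 tested muscle markers 8 fell, Act88F (-4.14) and Mhc (-4.07) most, and none rose. The opsin genes Rh2 to Rh6 had at most 2 reads in any library, and ninaE had 0, 0 and 0 reads in pupal and 23, 24 and 22 in larval libraries. The phototransduction genes norpA (3.3), rdgA (3.29) and rdgB (3.05), which brain neurons express as well, rose. The 16 tested photoreceptor markers gave 6 rises, eys by 2.97, and 5 falls, eya by 1.74, and summed to 4098 to 4665 CPM in pupal and 647 to 733 CPM in larval libraries. Lsp2 of the fat body had at most 4 reads in a library. Of 7 tested markers of epidermis and trachea 5 fell, shg, an E-cadherin, by 4.04, and the sum was 318 to 411 CPM in pupal and 273 to 308 CPM in larval libraries. The 1 that rose was ple, the tyrosine hydroxylase gene counted above with the monoamine genes. It made up 155, 206 and 179.9 CPM of the sum in pupal and 1.90, 3.99 and 3.48 CPM in larval libraries. The 5 tested fat body markers summed to 178 to 206 CPM in pupal and 133 to 147 CPM in larval libraries, 6 germline markers to 50.8 to 60.5 CPM in pupal and 27.0 to 30.5 CPM in larval libraries, 7 markers of peripheral sensory neurons to 12.8 to 16.4 CPM in pupal and 12.5 to 15.9 CPM in larval libraries and 10 markers of the optic lobe neuroepithelium to 1436 to 1632 CPM in pupal and 1460 to 1607 CPM in larval libraries. Fas3 (1.08) rose and E(spl)m8-HLH (-5.95) fell in the last of these. The part of these cell types in the differences above was not tested.

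Genes higher in pupal neurons were longer. The median genomic span of protein-coding genes called and at least 4-fold higher was 7001 bases, against 3096 for all tested protein-coding genes and 2720 for those at least 4-fold lower. Spans over 20 kb were found for 28.4% of the higher, 5.42% of the lower and 11% of all tested protein-coding genes. The median log2 fold change was -0.41 for spans up to 2 kb, 0.09 for 5 to 10 kb and 1.35 for spans over 50 kb. The exonic length, from which reads are drawn, differed less, with medians of 3030, 2131 and 2299 bases for the higher, the lower and all genes. Across 8139 protein-coding genes the log2 fold change had a Spearman correlation of 0.196 with span and of 0.140 with exonic length, which is a description over genes that are not independent. With the trend of each library with exonic length removed, 7313 genes were called. Chromosome arms held like shares of the higher and lower genes, for example 16.2% of the higher, 18.3% of the lower and 17.4% of all on X, except for the small chromosome 4 with 1.55%, 0.382% and 1.05%.

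**Figure D4:**
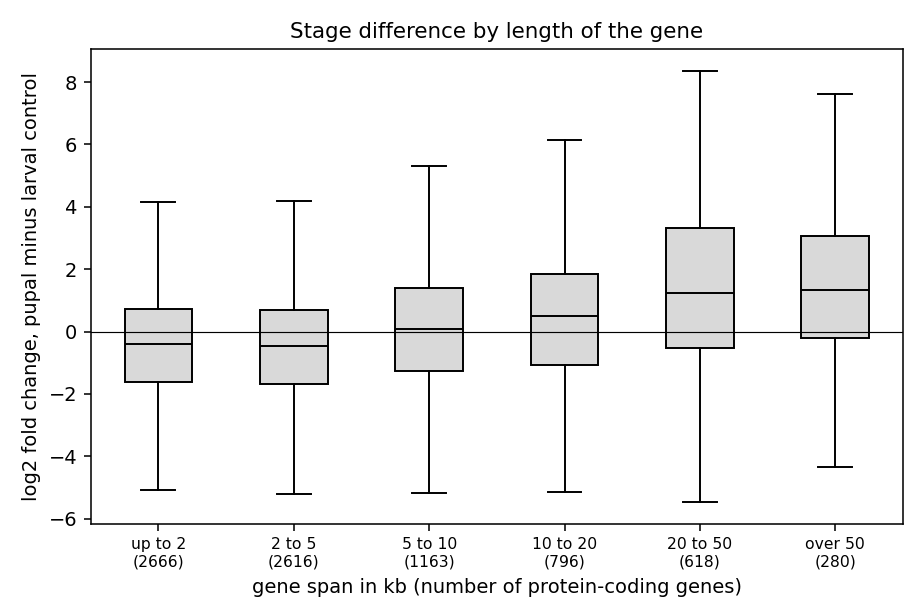
Log2 fold change (pupal minus larval control, vertical axis) of tested protein-coding genes in 6 classes of genomic span in kb (horizontal axis, number of genes in brackets), with boxes from the first to the third quartile, a line at the median and whiskers to the last value within 1.5 box lengths. The medians lie below 0 in both classes up to 5 kb and above 1 in both classes over 20 kb.

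Some genes were read at one stage only within the depth of the libraries. Among tested genes with at least 10 CPM at the other stage, 40 had at most 3 reads in every pupal library and 7 had at most 3 in every larval library. CG11099 had no read in any larval library and 284, 199 and 210 in the pupal libraries, at least 156-fold higher when 3 reads per library are taken as the floor. CG17029 had 402, 411 and 375 reads in pupal and 2, 0 and 3 in larval libraries, and the peptide gene AstC had 101, 146 and 102 in pupal and 1, 2 and 2 in larval libraries. Of the 40 genes near 0 in pupal neurons, Traf4, an adaptor of signalling receptors, had 3, 1 and 2 reads in pupal and 1146, 604 and 575 in larval libraries. The spindle gene cmet had 2, 3 and 3 in pupal and 1052, 560 and 550 in larval libraries. lncRNA:CR30009 had 3, 2 and 3 in pupal and 1660, 925 and 1006 in larval libraries. In these 3 genes and in dpn and PCNA larval control replicate 1 had the most reads, and it stood above the other larval libraries in CPM too, Traf4 having 65.9, 47.2 and 41.6 and dpn 38.3, 23.5 and 22.2 CPM in the larval libraries. Without it the log2 fold change was -7.24 for Traf4 and -6.83 for dpn, against -7.46 and -7.14 with it.

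The same comparison was made in the libraries with the shep RNAi transgene, which share no library with the controls. There 7237 genes (82.4%) were called, 38.7% of tested genes higher and 43.7% lower. Of the 3428 genes higher in pupal control neurons 3393 had the same direction with RNAi and 3232 were called in it, and of the 3887 lower genes 3858 and 3597. All 1371 genes at least 4-fold higher and 1599 of 1600 at least 4-fold lower kept their direction. Across the 8784 genes the log2 fold changes of both comparisons had a Pearson correlation of 0.969 and a Spearman correlation of 0.980, again over genes that are not independent. SIFaR had a log2 fold change of 8.98 with RNAi, ps of 8.60, ftz-f1 of 7.66, nerfin-1 of -6.95, Antp of -6.72 and cib of -5.52. Among the timing genes, chinmo had -0.29 in controls and 0.02 with RNAi, br -3.12 in controls and -2.47 with RNAi, and the let-7 host transcript 1.27 in controls and 1.65 with RNAi. The difference between both stage comparisons was called for 32 genes (0.364%), and chinmo, br and the let-7 host transcript were not among them. With single libraries left out this count was between 13 (larval control 3) and 89 (larval control 1), and it was 15 without larval RNAi 2, 18 without pupal RNAi 1 and 51 without pupal control 2.

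**Figure D5:**
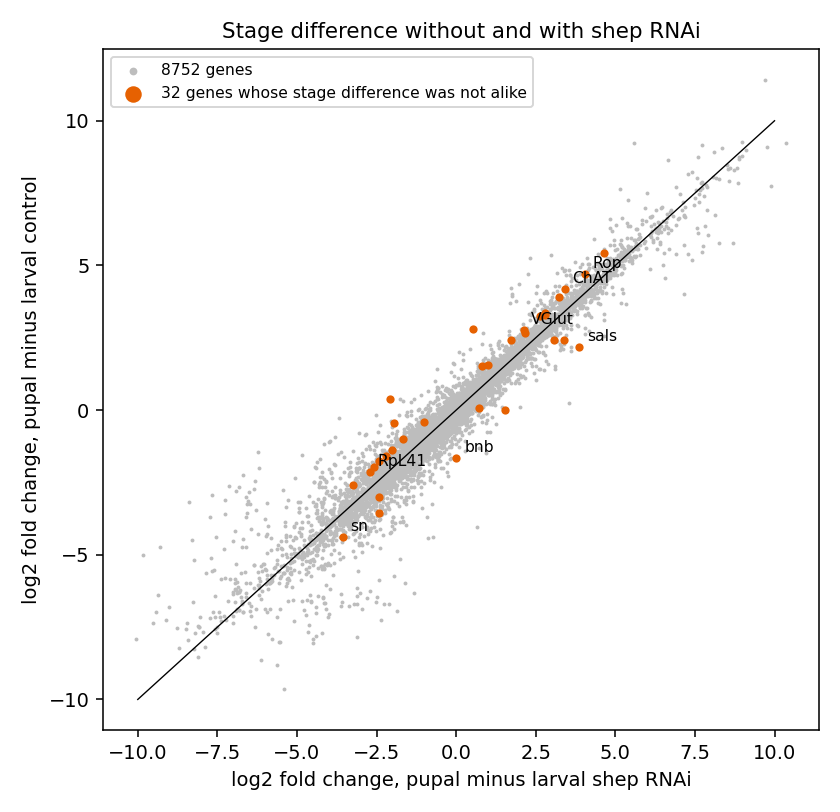
Each point is a gene, placed by its log2 fold change (pupal minus larval) in control neurons on the vertical axis and in shep RNAi neurons on the horizontal axis, with the diagonal marking equal values. Orange points are the 32 genes for which the difference was called by edgeR, and the others lie along the diagonal with a Pearson correlation of 0.969 over all genes.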

How the data were processed

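The authors deposited 1 table of unnormalized counts of reads per gene. Per the submitters' processing notes, the tools named were cutadapt 1.10, HISAT2 2.0.4 and featureCounts 1.5.0-p3 and the build was dm6; libraries were made with the NuGEN Ovation Model Organisms kit from RNA of sorted cells, per the labels' protocols. How the counting treated strand and reads with several matches, and its annotation release, are not given in the sources used here. Overlapping genes, antisense genes and near-identical copies are therefore less certain. Columns were matched to groups by their titles. Symbols and positions of 17210 of 17402 genes came from Ensembl release 115. Those of the other 192 that passed the filter were tested but are not named.

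Counts were analysed with R 4.3.3 and edgeR 4.0.16. The 12 neuron libraries were fitted together (TMM scaling, filterByExpr, robust quasi-likelihood fit of group means, 8 residual degrees of freedom), and pupal control was tested against larval control, 2-sided, with Benjamini-Hochberg adjustment over all 8784 genes. A call is an adjusted p under 0.05. CPM use TMM-scaled totals. SD values are over 3 libraries per group, and SE values come from the quasi-likelihood fit of the 12 neuron libraries. A log2 fold change is pupal minus larval. Adjusted p values for the RNAi libraries and for the difference between both comparisons come from the same fit. Alternatives used DESeq2 1.42.0 and limma 3.58.1. Code was tested on simulated data in which most genes did not differ, so that the scaling was not tested for a difference as wide as this one. Figures used matplotlib 3.10.9.

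The libraries compared, the 66 gene lists and the named genes were chosen with earlier results of these data known. Named genes are the 10 largest rises and falls with at least 100 CPM at the higher stage and separate libraries. They also include the 5 genes outside the mitochondrial genome with the most counts at each stage. Per list they include the 4 called genes with the largest changes in its main direction and 3 in the other. The rule also covered uncalled members and all members of small lists, of which some are given by counts alone; other genes, such as those near 0 at one stage, were chosen after their values were seen. A gene that the rule covers is not reported here.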

Additional observations from a re-analysis of the deposited data

Results flagged for a closer look

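The effect of stage itself differed between neurons without and with shep RNAi for 5 of the genes named above. All values are control minus RNAi differences of log2 fold changes (pupal minus larval), tested as an interaction by edgeR over all genes. For ChAT the stage difference was 4.18 in control and 3.41 in RNAi neurons, 0.77 apart (SE 0.12, edgeR adjusted p = 0.00384). For Rop it was 4.70 in control and 4.05 in RNAi neurons, 0.65 apart (SE 0.12, edgeR adjusted p = 0.0130). VGlut had 2.78 in control and 2.12 in RNAi neurons, 0.66 apart (SE 0.12, edgeR adjusted p = 0.0118). EndoB had 3.92 in control and 3.24 in RNAi neurons, 0.68 apart (SE 0.14, edgeR adjusted p = 0.0280). For sn the fall was -4.38 in control and -3.56 in RNAi neurons, a difference of -0.82 (SE 0.13, edgeR adjusted p = 0.00384). With each of the 12 neuron libraries left out in turn, ChAT (0.71 to 0.87) and sn (-0.90 to -0.76) were called in 12 of 12 fits. VGlut was lost without larval RNAi replicate 2 (0.62), and Rop without that library (0.61) or larval control replicate 3 (0.59). EndoB was called in 4 of 12 fits, with values of 0.58 to 0.76. It was lost without pupal control replicate 1 or 3, larval control replicate 2, any pupal RNAi replicate, or larval RNAi replicate 2 or 3. With 3 libraries in a group, no rule for removing single libraries that stand apart was applied, and larval control replicate 1 was kept.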

How the results depend on the processing

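The number of genes called (7315) lay between 6806 (adjusted p under 0.01) and 7945 (no filter on low counts) over all alternatives run, including RLE, upper-quartile and library-total scaling, DESeq2 (7237), limma-voom, a filter at 1 CPM, the 6 control libraries alone (7029), removal of mitochondrial and rRNA genes and removal of the trend with exonic length. Leaving out each control library gave 7177 to 7286 calls, and 3031 to 3087 at 4-fold or more, against 2971. The comparison of RNAi libraries gave 7070 to 7190 calls without each of its libraries. The count at 4-fold or more was 4505 when tested against a minimum of 2-fold (glmTreat) and 5233 for all calls of at least 2-fold. Deviations of same-numbered pupal and larval libraries correlated at 0.159, 0.119 and -0.0034, so the numbers were not taken to pair the libraries, and not every library correlated best with its own number; with replicate number as a block, 7297 genes were called, 2978 at 4-fold or more. The median log2 fold change was -0.66 with upper-quartile factors, -0.91 with library totals and -0.20 without the filter. Genes near 0 numbered 6 in pupal and 2 in larval libraries at 1 read, and 125 in pupal and 29 in larval libraries at 10 reads. The median span was 5343 bases for genes at least 2-fold higher and 2597 for those at least 2-fold lower.

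Of 418 named genes 412 were called, and the sign of the others is not established. With upper-quartile factors values turned negative for CadN (-0.41), DIP-alpha (-0.31), Dcr-2 (-0.11), Eip75B (-0.094), Irk1 (-0.25), cnn (-0.21), exd (-0.20), mib1 (-0.12), par-6 (-0.15), side-V (-0.0889) and vtd (-0.20). With library totals they were -0.66 for CadN, -0.17 for Chd1, -0.56 for DIP-alpha, -0.36 for Dcr-2, -0.35 for Eip75B, -0.50 for Irk1, -0.056 for Kr, -0.17 for Tsr1, -0.0294 for aurA, -0.47 for cnn, -0.45 for exd, -0.10 for fzr, -0.37 for mib1, -0.41 for par-6, -0.24 for shep, -0.35 for side-V, -0.19 for stau and -0.45 for vtd. Both settings lower every value by construction. With the trend with exonic length removed, values were -0.85 for CadN, -0.0494 for Chd1, -0.62 for DIP-alpha, -0.10 for Dcr-2, -0.53 for Eip75B, -0.17 for Irk1, 0.11 for Rpn13, -0.29 for cnn, -0.38 for shep and -0.10 for side-V, and the cause was not tested. KaiR1D was 0.0177 with RLE, 0.0178 with DESeq2, 1e-04 with limma-voom, 9e-04 with the filter at 1 CPM and 0.0068 without mitochondrial genes. Leaving out each control library gave KaiR1D values of -0.012 to 0.0407 and Irk1 values of -0.092 to 0.465, Irk1 being negative without pupal control replicate 1. Depth limits the genes with a few reads at one stage, whose fold changes rest on single reads, and intervals from counts cover counting error only.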
